A study of Arabidopsis thaliana with 38 samples.

Results

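The comparison described here is the response of total leaf RNA to cold in the Arabidopsis thaliana line 35S:HF-RPL18, taken over every probe set of the Affymetrix ATH1 array that is not an Affymetrix control. Of the 38 arrays of the series, 6 belong to it, 3 from cold-treated plants and 3 from non-stress plants. Of the 22810 probe sets of the array, 22746 were tested after 64 control probe sets were left out. A probe set is a group of short probes that together measure 1 transcript, and 13513 of the tested probe sets (59.4%) carried the name of exactly 1 gene.

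Cold plants of this line had spent 12 h in a chamber at 4 °C with about 50 µE of light, whereas non-stress plants were kept at 23 °C and about 100 µE, so temperature and light level cannot be told apart in this comparison. Both groups were Col-0 rosettes, 25 days old, and the cold began a short time after lights came on. The plants carried the transgene 35S:HF-RPL18, a tagged ribosomal protein of the large subunit under the viral 35S promoter, which is active in most plant cells, and all 6 samples came from the 1 transgenic line 35S:HF-RPL18#12-2-4. Cold and non-stress plants therefore share the transgene. The other total RNA arrays, used for the spread and for a comparison between lines, came from atcsp1-1, a mutant of the cold shock domain protein CSP1, and from 35S:AtCSP1-FH#11, here CSP1-FH, 1 line in which the 35S promoter drives a tagged CSP1. Each gave 2 cold and 2 non-stress arrays, from plants of the same age, ecotype, tissue and treatments. The comparison asks which leaf transcripts change in amount with cold in plants that keep their own CSP1. The study calls its replicates biological. Neither CSP1 nor the RPL18 gene had a probe set with a name, so neither was checked by name.

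When a temperate plant is chilled, a cascade led by the CBF transcription factors switches on cold-regulated (COR) genes. Their products include dehydrins and small hydrophilic proteins that protect membranes and proteins during freezing, and the cells also rework sugars, membranes and growth. Leaf growth slows in the cold, and the circadian clock, which gates the CBF pathway by time of day, is itself altered by temperature.

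Array values are RMA probe-set summaries on a log2 scale, so a difference of 1 means a doubling. A probe set was called when its Benjamini-Hochberg adjusted p in limma was below 0.05. In the cold, 1987 probe sets were higher (8.74% of the 22746) and 2498 were lower (11.0%), together 19.7%. Of these, 1022 of the higher and 1396 of the lower had 1 named gene. The median difference of the called rises was 0.97 and that of the called falls -0.82, while the median over all tested probe sets was -0.02. Large differences were more often rises: 294 probe sets rose and 119 fell by at least 2 on the log2 scale, and 41 rose and 2 fell by at least 4. The groups did not overlap in 31.2% of all tested probe sets (13.9% with all cold arrays above and 17.3% with all cold arrays below), and they overlapped in 122 of the called ones.

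**Figure D1:**
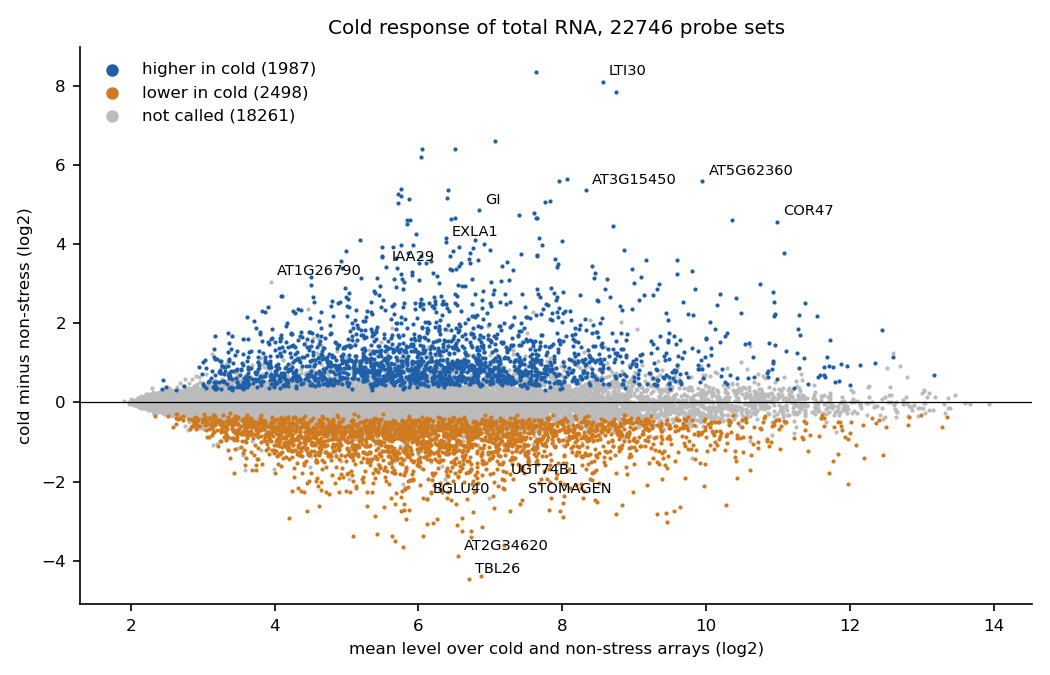
Cold minus non-stress difference (log2) of each tested probe set against its mean level over the 6 arrays (log2); blue points were called higher in cold (1987), orange points lower (2498), and grey points were not called. The largest rises reach beyond 8, as in LTI30 at 8.11, whereas the largest named fall is TBL26 at -4.46.

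The arrays of a group resembled each other more than those of the other group. Across probe sets, the correlation of levels was 0.986 to 0.989 among cold arrays and 0.982 to 0.986 among non-stress arrays, and 0.945 to 0.958 between them. Array medians lay between 4.40 and 4.48. The median SD of a probe set was 0.16 over the cold arrays and 0.18 over the non-stress arrays (n = 3 each). The difference between the 3′ and 5′ control probe sets of GAPDH, a sign of RNA integrity, was 1.21 to 1.77 in cold and 1.26 to 1.84 in non-stress arrays. The same measure for actin was 3.31 to 3.84 in cold and 3.57 to 4.19 in non-stress arrays, with overlap between the groups. The control probe set for 25S ribosomal RNA read 10.16 to 10.34 in cold and 9.05 to 9.78 in non-stress arrays, so it moved with the condition; its part in the gene differences was not tested.

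Cold acclimation genes rose strongly. Of the 28 genes listed for the CBF regulon, 7 had a named probe set, and 6 of these rose, against a background of 8.74%, with a median difference of 2.51. LTI30, a dehydrin, read 12.85, 12.57 and 12.43 in the cold arrays and 4.76, 4.90 and 3.86 in the non-stress arrays. All 3 cold arrays were thus far above the array medians of 4.40 to 4.48, whereas the non-stress arrays lay closer to these medians. The difference was 8.11 ± 0.27 (SE; limma adjusted p = 2.49e-08), a 276-fold change and the largest rise among probe sets with 1 named gene.

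COR47, another dehydrin, read 13.29, 13.37 and 13.17 in cold and 8.47, 9.23 and 8.41 in non-stress plants. It was already well expressed without cold, and the difference was 4.57 ± 0.22 (adjusted p = 3.61e-07). COR15A and COR15B, which encode small chloroplast proteins that stabilise membranes on freezing, reached similar levels in the cold. COR15A read 12.50, 12.41 and 12.30 in cold and 11.16, 9.46 and 9.95 in non-stress arrays, and COR15B read 12.32, 11.94 and 12.35 in cold and 10.65, 10.61 and 9.81 in non-stress arrays. The non-stress arrays of COR15A were spread over more than 1.5, whereas its cold arrays lay close together, and the rises were 2.21 ± 0.41 and 1.85 ± 0.23 (adjusted p = 0.00294 and 2.15e-04).

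STZ, a zinc finger transcription factor of stress responses, read 7.18, 7.94 and 6.48 in cold and 5.30, 3.81 and 4.96 in non-stress arrays (difference 2.51 ± 0.43, adjusted p = 0.00168). COR27, a cold- and clock-regulated gene, read 10.18, 10.59 and 9.74 in cold arrays, against 6.31, 8.22 and 6.65 in non-stress arrays (difference 3.11 ± 0.57, adjusted p = 0.0026). Its second non-stress array was more than 1.5 above the other two. The seventh measured gene of the list, AT4G33980, read 7.91, 8.24 and 6.75 in cold and 5.43, 6.63 and 6.04 in non-stress arrays; its difference of 1.60 was not called (adjusted p = 0.104), although the groups did not overlap. With the replicate number as a block, all 7 were called.

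A wider group of dehydration and low-temperature proteins, which contains 4 of the genes above, held 19 probe sets. Of these, 11 rose, none fell and 8 were not called (57.9% higher and 0% lower, against 8.74% and 11.0% of all probe sets), and the median was 0.85. TIL, a temperature-induced lipocalin of the plasma membrane, read 11.33, 11.79 and 11.74 in cold and 9.00, 9.89 and 9.17 in non-stress arrays (difference 2.27, adjusted p = 1.35e-04). DI21, a drought-induced gene, read 7.70, 6.74 and 7.02 in cold and 5.37, 5.22 and 4.76 in non-stress arrays (difference 2.04, adjusted p = 7.46e-04). SRC2, a C2-domain protein, differed by 1.86 ± 0.26 (adjusted p = 5.18e-04). LEA4-5, a late embryogenesis abundant protein of the group, was low in both conditions: it read 3.31, 3.52 and 3.51 in cold and 3.25, 2.93 and 3.68 in non-stress arrays, and its groups overlapped. With the replicate block, 3 members of the group were called lower as well. With 1 array left out, the counts of the group became 9 higher and 1 lower without cold array 1, 10 higher and 2 lower without non-stress array 1 and 10 higher and 1 lower without non-stress array 3.

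**Figure D2:**
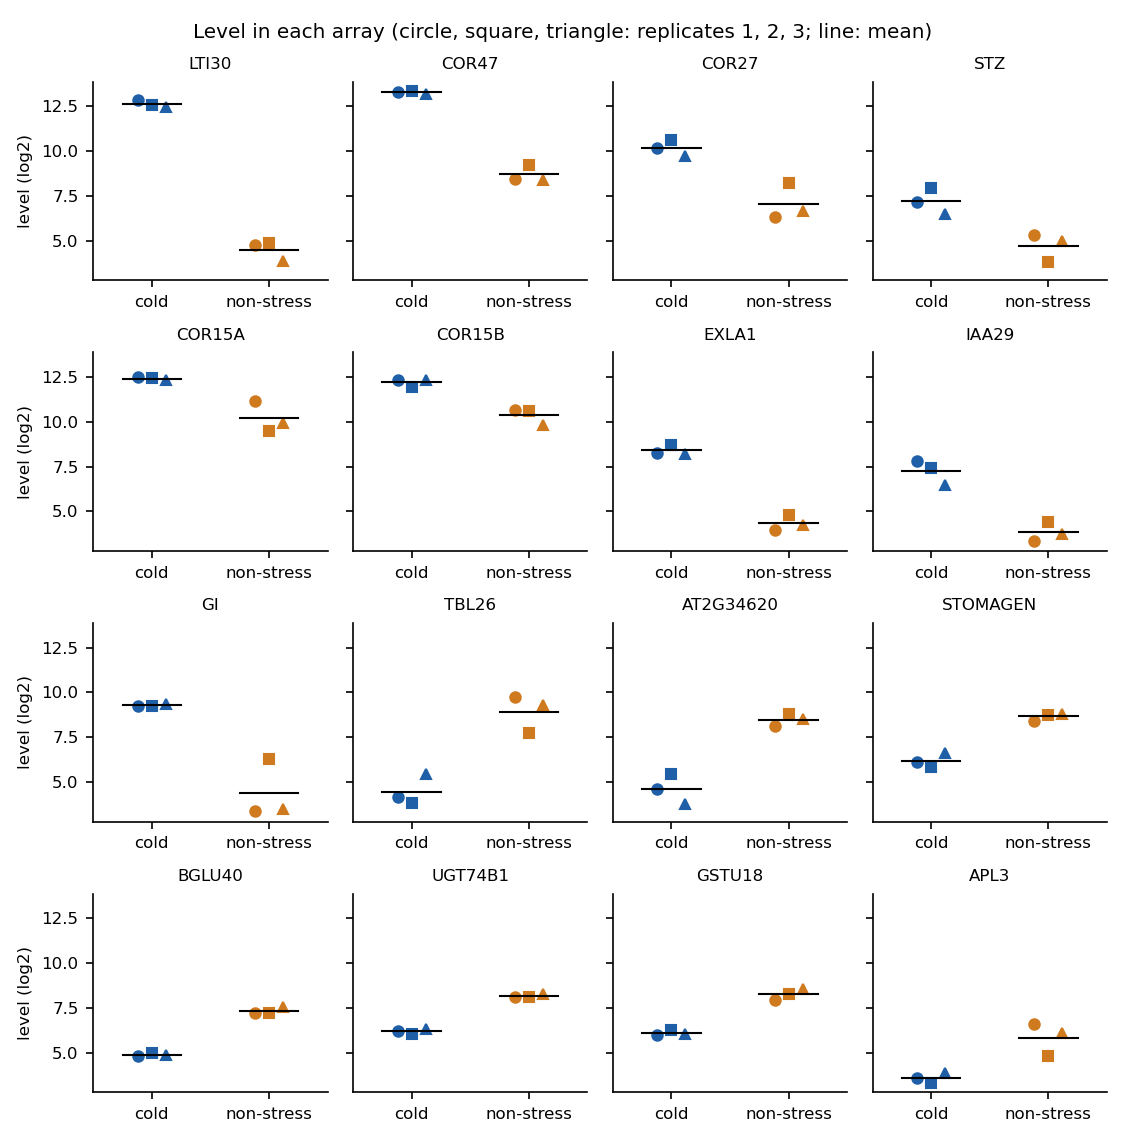
Level (log2) of 16 named genes in each of the 3 cold arrays (blue, left) and 3 non-stress arrays (orange, right), with circles, squares and triangles for replicates 1, 2 and 3 and a line at the mean. The cold arrays of LTI30 and COR47 lie above every non-stress array, those of TBL26 and BGLU40 lie below, and the square of the non-stress group stands apart in GI and COR27.

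GI was the 1 measured gene of the 22 listed for the circadian clock. It encodes GIGANTEA, a clock protein that peaks towards evening. GI read 9.27, 9.23 and 9.34 in the cold arrays, against 3.41, 6.30 and 3.53 in the non-stress arrays. The cold arrays agreed closely, whereas the second non-stress array read nearly 3 above the other two. The rise was 4.87 ± 0.92 (adjusted p = 0.00318), and it was 5.81 without that array. The same array stood apart in AT5G62360, which read 12.55, 13.03 and 12.65 in cold and 5.74, 9.84 and 5.88 in non-stress plants (difference 5.59 ± 1.17, adjusted p = 0.00585; 6.93 without the second non-stress array).

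Most of the other largest rises belonged to genes for which the annotation gave a locus code but no name. AT5G20790 read 9.24, 8.41 and 9.66 in cold and 3.76, 3.96 and 3.45 in non-stress arrays (difference 5.38, adjusted p = 9.6e-07). AT3G15450, from the list of genes known to rise in low light and sugar starvation, read 11.28, 12.04 and 9.71 in cold and 5.11, 6.52 and 5.32 in non-stress arrays (difference 5.36, adjusted p = 1.29e-04). In both genes every cold array was far above every non-stress array. The other 2 measured genes of that list of 14 were not called, and 1 of them was called higher without cold array 3. AT5G62280, AT1G73480, AT4G21870, AT3G55580, AT1G52200 and AT1G68500 rose by 5.22, 5.18, 5.09, 5.04, 4.78 and 4.66, with adjusted p between 1.15e-06 and 3.23e-05.

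The largest fall among probe sets with 1 named gene was that of TBL26 of the trichome birefringence-like family, whose studied members attach acetyl groups to cell wall polysaccharides. TBL26 read 4.16, 3.82 and 5.43 in cold and 9.74, 7.76 and 9.29 in non-stress arrays, a difference of -4.46 ± 0.61 (adjusted p = 4.29e-04). Its highest cold array was still more than 2 below its lowest non-stress array. AT2G34620 read 4.60, 5.45 and 3.77 in cold and 8.11, 8.82 and 8.52 in non-stress arrays (difference -3.88 ± 0.37, adjusted p = 3.61e-05), and AT5G02230 read 3.76, 3.81 and 4.31 in cold and 6.78, 7.78 and 8.26 in non-stress arrays (difference -3.65, adjusted p = 2.75e-05). The next 9 falls, AT1G23205, AT1G68600, AT1G30250, AT5G59670, AT1G47400, AT2G19310, AT1G80850, AT1G19960 and AT4G33660, lay between -3.38 and -2.74. The rule that chose these genes required groups that do not overlap.

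Cell wall genes moved in both directions. Among 19 expansins, proteins that loosen walls during growth, 2 rose and 5 fell (10.5% higher and 26.3% lower, against 8.74% and 11.0% of all probe sets), and with the replicate block 3 rose and 7 fell. The 2 that rose were expansin-like A genes: EXLA1 read 8.27, 8.73 and 8.21 in cold and 3.96, 4.83 and 4.27 in non-stress arrays (difference 4.05 ± 0.24, adjusted p = 1.68e-06), and EXLA2 read 7.21, 6.55 and 6.29 in cold and 4.76, 4.40 and 4.53 in non-stress arrays (difference 2.12 ± 0.28, adjusted p = 3.21e-04). The beta-expansins EXPB3 and EXPB1 and the expansin-like B gene EXLB1 went the other way, by -1.79, -1.67 and -1.70 (adjusted p = 0.00102, 1.56e-04 and 0.00156), with each cold array below each non-stress array. EXPA16, an alpha-expansin, read 5.97, 5.21 and 5.37 in cold and 7.25, 7.64 and 6.08 in non-stress arrays (difference -1.47, adjusted p = 0.0183); it was not called without cold array 2 or 3 or non-stress array 1 or 2 (-1.40 to -1.15, adjusted p = 0.0547 to 0.0718).

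Of the 10 xyloglucan endotransglucosylase/hydrolases, which cut and rejoin wall xyloglucan, 3 rose and none fell (30% higher and 0% lower, against 8.74% and 11.0% of all probe sets). XTH33 read 4.77, 5.27 and 5.21 in cold and 3.43, 3.21 and 3.46 in non-stress arrays (difference 1.72, adjusted p = 2.16e-04). EXGT-A3, also among the 3, was not called without cold array 2 (1.15, adjusted p = 0.0609) or non-stress array 2 (0.89, adjusted p = 0.0600). Within the 25 probe sets of the trichome birefringence-like family 5 were higher and 3 lower (20% higher and 12% lower, against 8.74% and 11.0% of all probe sets). TBL45 read 9.16, 9.14 and 9.19 in cold and 7.25, 6.96 and 7.00 in non-stress arrays, with almost no spread in the cold (difference 2.095 ± 0.15, adjusted p = 7.47e-06), and TBL35 fell by 0.89 on the log2 scale (adjusted p = 0.00101). The counts of the group moved to 3 higher and 3 lower without cold array 1 or non-stress array 3, 3 higher and 2 lower without cold array 2 and 2 higher and 2 lower without non-stress array 2.

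Among 20 genes of wall polymer synthesis and sensing, 4 rose and 6 fell (20% higher and 30% lower, against 8.74% and 11.0% of all probe sets). GAUT15, of the family that builds pectin, rose by 1.62; FER, the receptor kinase FERONIA that senses wall integrity, by 1.26; and COB, COBRA, which guides cellulose deposition, by 0.95 (adjusted p = 3.50e-04, 0.00739 and 1.01e-04). CSLC5, a xyloglucan backbone synthase, was lower, at 5.27, 5.65 and 5.91 in cold and 6.36, 6.52 and 6.96 in non-stress arrays (adjusted p = 0.00743). With all 38 arrays in the fit, 3 were higher and 1 lower. Of 15 family 9 cellulases 2 fell and none rose (0% higher and 13.3% lower, against 8.74% and 11.0% of all probe sets), a share of falls near that of all probe sets, with GH9B8 at -1.73 and GH9C2 at -0.94 (adjusted p = 0.00339 and 0.00466). Of 10 RALF-like peptides 3 fell and none rose (0% higher and 30% lower, against 8.74% and 11.0% of all probe sets). RALFL34, RALFL32 and RALFL31 were lower, by -1.41, -1.37 and -1.11 (adjusted p = 2.07e-05, 0.00236 and 0.00129). RALF peptides are growth-inhibiting signals, several of which bind FERONIA-type receptors. Without non-stress array 3, 1 member of the family was called higher.

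The group of auxin and gibberellin genes held 27 probe sets, of which 6 rose, none fell and 21 were not called (22.2% higher and 0% lower, against 8.74% and 11.0% of all probe sets), with a median of 0.14. IAA29, an Aux/IAA repressor of auxin signalling, read 7.83, 7.45 and 6.49 in cold and 3.37, 4.40 and 3.74 in non-stress arrays (difference 3.42 ± 0.44, adjusted p = 2.86e-04). HAT2, an auxin-induced homeodomain factor, read 8.24, 9.51 and 7.96 in cold and 5.29, 5.98 and 6.22 in non-stress arrays (difference 2.74 ± 0.40, adjusted p = 6.04e-04).

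GH3.3, which conjugates auxin to amino acids, read 5.66, 6.49 and 5.46 in cold and 3.40, 3.27 and 2.96 in non-stress arrays (difference 2.66, adjusted p = 5.18e-04). GID1B, a gibberellin receptor, read 5.24, 5.35 and 5.29 in cold and 3.54, 3.80 and 3.93 in non-stress arrays (difference 1.54 ± 0.14, adjusted p = 2.93e-05). SPY, SPINDLY, which restrains gibberellin signalling, read 6.82, 6.89 and 6.97 in cold and 5.67, 5.64 and 5.78 in non-stress arrays (difference 1.19 ± 0.10, adjusted p = 1.7e-05). UGT74D1, an auxin glucosyltransferase, read 7.80, 7.25 and 6.94 in cold and 6.55, 5.03 and 5.38 in non-stress arrays (difference 1.68, adjusted p = 0.0466); it was not called without cold array 1, 2 or 3 or non-stress array 2 or 3 (1.37 to 1.87, adjusted p = 0.0609 to 0.157). With the replicate block, or with the 6 compared arrays alone, 1 further member was called lower.

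**Figure D3:**
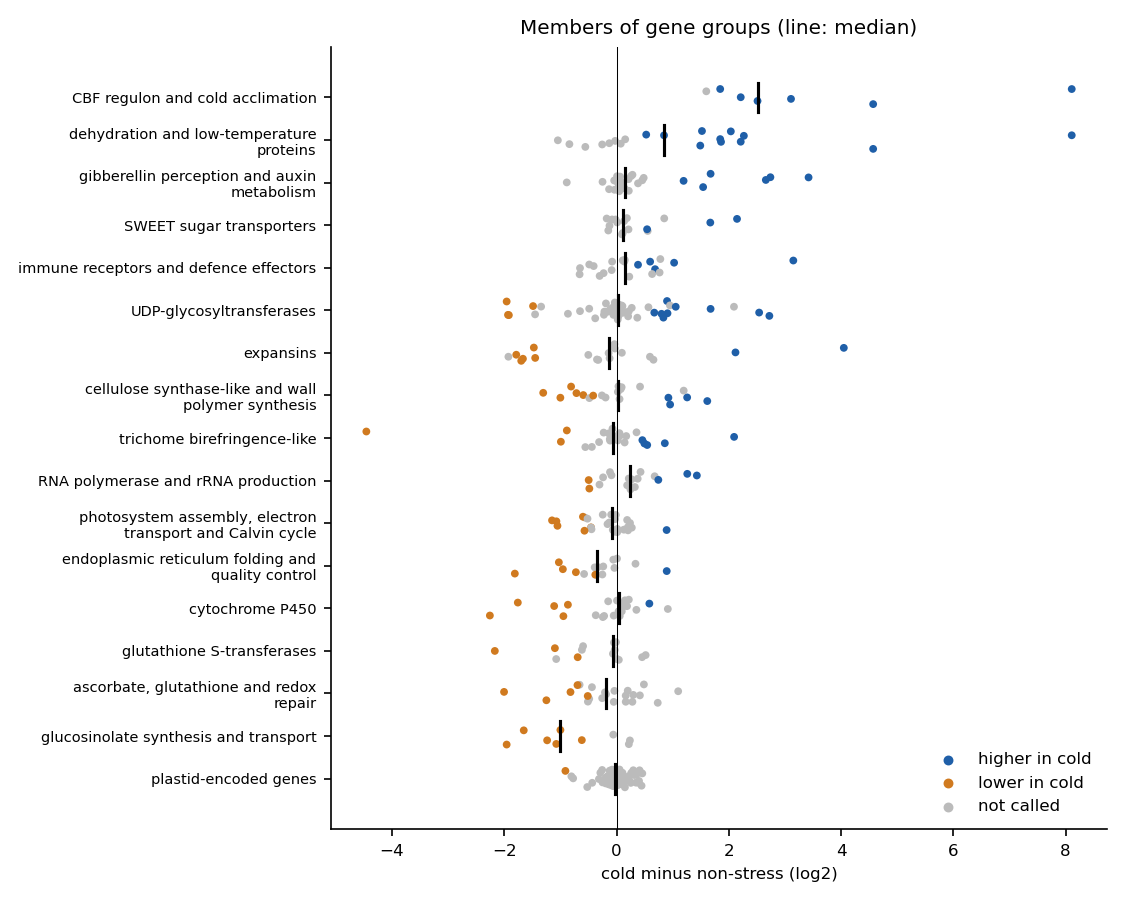
Cold minus non-stress difference (log2) of the probe sets in 17 gene groups, 1 point each, with a black line at the group median; blue points were called higher in cold, orange lower, and grey not called. The CBF list has 6 of 7 points called higher, the glucosinolate group has 6 of 9 called lower, and the plastid-encoded genes cluster around 0.

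Glucosinolates are sulfur-rich defence compounds of the cabbage family. Of 9 probe sets for their synthesis and transport, 6 fell, none rose and 3 were not called (0% higher and 66.7% lower, against 8.74% and 11.0% of all probe sets), and the median was -0.999. UGT74B1, the glucosyltransferase of the core pathway, read 6.21, 6.09 and 6.35 in cold and 8.09, 8.12 and 8.31 in non-stress arrays (difference -1.96 ± 0.11, adjusted p = 1.22e-06). AOP1 read 3.89, 4.08 and 4.36 in cold and 5.40, 6.15 and 5.74 in non-stress arrays (difference -1.65, adjusted p = 1.64e-04). BCAT4, the first step in lengthening methionine for these compounds, differed by -1.07 (adjusted p = 3.56e-04).

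The glucosinolate importers GTR1 and GTR2 were lower as well. GTR1 read 7.01, 6.47 and 7.25 in cold and 8.21, 7.93 and 8.30 in non-stress arrays (difference -1.24, adjusted p = 7.08e-04), and GTR2 differed by -0.999 (adjusted p = 7.83e-04). MYC3, a jasmonate-signalling transcription factor, read 4.04, 4.04 and 4.40 in cold and 4.61, 4.77 and 4.95 in non-stress arrays (difference -0.62, adjusted p = 0.0127); it was not called without cold array 1 or 2 or non-stress array 3 (-0.56 to -0.53, adjusted p = 0.0505 to 0.0524). Between 5 and 6 fell, and none rose, in each of the 15 alternative fits, and 6 fell without the second non-stress array. The fit without the lowest 30% of probe sets by mean level held 8 of the 9.

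Other specialised metabolism was split. Among 51 UDP-glycosyltransferases, which attach sugars to small molecules, 9 rose and 4 fell (17.6% higher and 7.84% lower, against 8.74% and 11.0% of all probe sets). UGT72B3 read 7.31, 6.20 and 6.95 in cold and 4.55, 4.03 and 3.71 in non-stress arrays (difference 2.72, adjusted p = 3.71e-04), and UGT78D3, a flavonol glycosyltransferase, read 5.85, 5.83 and 5.78 in cold and 3.15, 3.28 and 3.40 in non-stress arrays (difference 2.54, adjusted p = 6.84e-05). GT72B1 and UGT76E11 were lower by -1.93 and -1.92 (adjusted p = 0.00513 and 7.70e-04). The members UGT74B1 and UGT74D1 are described with glucosinolates and auxin.

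The flavonoid and anthocyanin list had 5 of 21 genes measured, none of them called; without adjustment 1 of the 5 had a p below 0.05. In several alternative fits 1 of the 5 was called higher. These included all 28 total and polysomal arrays, all 38 arrays, cyclic loess and the fit without the lowest 30% of probe sets. None was called with the 6 compared arrays alone or with quantile normalisation. UGT78D2, a flavonol and anthocyanin glucosyltransferase, read 9.82, 8.80 and 9.65 in cold and 8.71, 5.95 and 7.34 in non-stress arrays. Its groups did not overlap, yet the difference of 2.09 ± 0.69 was not called (adjusted p = 0.0538; adjusted p = 0.00957 with the replicate block). DFR, the reductase that leads into anthocyanins, read 3.53, 2.61 and 2.52 in cold and 6.53, 3.07 and 3.07 in non-stress arrays. One non-stress array was far above the other two, and the difference was -1.34 ± 0.94 (adjusted p = 0.405).

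Of 14 glutathione S-transferases, which detoxify reactive compounds, 3 fell and none rose (0% higher and 21.4% lower, against 8.74% and 11.0% of all probe sets), and with the replicate block 6 fell. GSTU18 read 5.98, 6.27 and 6.05 in cold and 7.96, 8.28 and 8.55 in non-stress arrays (difference -2.17 ± 0.17, adjusted p = 1e-05), and GSTL3 differed by -0.69 (adjusted p = 0.00488). Of 24 cytochrome P450 genes, a family of oxidases, 5 fell and 1 rose (4.17% higher and 20.8% lower, against 8.74% and 11.0% of all probe sets). CYP71B24 read 3.48, 3.97 and 3.83 in cold and 5.67, 5.94 and 6.45 in non-stress arrays (difference -2.26, adjusted p = 1.60e-04), and CYP71B28 and CYP71B6 differed by -1.76 and -0.87 (adjusted p = 1.79e-04 and 9.70e-04). CYP71B23 and CYP71B36, which also fell, were not called without cold array 1 or 2 or non-stress array 1 or 3 (adjusted p = 0.0517 to 0.121). Leaving out single arrays changed the counts of the group to 0 higher and 3 lower without cold array 1 or non-stress array 3 and 1 higher and 3 lower without cold array 2.

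In the group of 23 genes of ascorbate, glutathione and redox repair, 5 fell and none rose (0% higher and 21.7% lower, against 8.74% and 11.0% of all probe sets). MSRB5, which repairs oxidised methionine, read 4.68, 6.29 and 5.93 in cold and 7.83, 7.41 and 7.67 in non-stress arrays (difference -2.003, adjusted p = 0.00539), and ATMDAR2, a monodehydroascorbate reductase, read 6.75, 6.55 and 7.35 in cold and 8.15, 8.15 and 8.10 in non-stress arrays (difference -1.25, adjusted p = 0.00109). ATHM2, a plastid thioredoxin, differed by -0.70 (adjusted p = 0.00251). Without the third cold array 6 fell and 2 rose. With cyclic loess 4 fell and 3 rose, and with the 28 total and polysomal arrays 6 fell and 3 rose. BGLU40, a beta-glucosidase, read 4.83, 4.98 and 4.87 in cold and 7.21, 7.22 and 7.57 in non-stress arrays (difference -2.44 ± 0.17, adjusted p = 6.01e-06), whereas BGLU25 of the same family rose by 1.53 (adjusted p = 5.18e-04). Among the 21 measured beta-glucosidases 1 rose and 2 fell (4.76% higher and 9.52% lower, against 8.74% and 11.0% of all probe sets), both shares below those of all probe sets. With 1 array left out, the counts of the group became 1 higher and 1 lower without cold array 1 or 2 or non-stress array 1, 2 or 3 and 2 higher and 1 lower without cold array 3.

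Few genes of the starch and sugar list were measured. Of 31 listed, 4 were measured, 2 fell and 2 were not called (0% higher and 50% lower, against 8.74% and 11.0% of all probe sets). APL3, a large subunit of the enzyme that makes ADP-glucose for starch, read 3.60, 3.31 and 3.88 in cold and 6.59, 4.86 and 6.10 in non-stress arrays (difference -2.25 ± 0.47, adjusted p = 0.00564). DPE1, a plastid enzyme of starch breakdown, read 6.34, 5.64 and 5.68 in cold and 7.68, 7.99 and 7.08 in non-stress arrays (difference -1.69, adjusted p = 0.00136). In a group of sugar transport and metabolism with 14 probe sets, 1 rose, 3 fell and 10 were not called. The shares were 7.14% higher and 21.4% lower, against 8.74% and 11.0% of all probe sets, and the median was -0.26. None rose and 2 fell without cold array 3 or non-stress array 1 or 2, and with all 38 arrays. Of 16 SWEET sugar transporters 3 rose and none fell (18.8% higher and 0% lower, against 8.74% and 11.0% of all probe sets). SWEET1 read 8.08, 8.08 and 8.51 in cold and 7.01, 6.08 and 6.56 in non-stress arrays (difference 1.67, adjusted p = 7.98e-04), and SWEET2, a vacuolar member, read 8.30, 7.56 and 7.69 in cold and 6.20, 4.76 and 6.17 in non-stress arrays (difference 2.15, adjusted p = 0.0228). SWEET2 was not called without cold array 1 or non-stress array 2 (1.67 to 1.92, adjusted p = 0.0818 to 0.0891). SWEET4 read 5.60, 5.41 and 5.48 in cold and 4.85, 5.06 and 4.95 in non-stress arrays (difference 0.54, adjusted p = 0.0134); it was not called without cold array 1 (0.49, adjusted p = 0.0522).

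Among 28 nuclear genes of photosystem assembly, electron transport and the Calvin cycle, 1 rose, 6 fell and 21 were not called (3.57% higher and 21.4% lower, against 8.74% and 11.0% of all probe sets), with a median of -0.08. NdhN and NdhS, subunits of the chloroplast NADH dehydrogenase-like complex, and PGRL1B, which acts in cyclic electron flow, were lower. NdhN read 8.26, 8.53 and 7.95 in cold and 9.38, 9.31 and 9.50 in non-stress arrays (difference -1.15, adjusted p = 5.48e-04), NdhS differed by -1.07 (adjusted p = 5.32e-04) and PGRL1B by -1.05 (adjusted p = 9.75e-04). ATPC1, the gamma subunit of the chloroplast ATP synthase, showed a small but even difference, with 12.20, 12.09 and 12.24 in cold and 12.63, 12.66 and 12.60 in non-stress arrays (difference -0.45, adjusted p = 0.00233). LHCB4.2, an antenna protein of photosystem II, read 12.14, 12.38 and 12.11 in cold and 10.69, 11.80 and 11.47 in non-stress arrays (difference 0.89, adjusted p = 0.0299); it was not called without cold array 1, 2 or 3 or non-stress array 1 or 3 (0.58 to 0.97, adjusted p = 0.0501 to 0.0993).

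Of the 69 probe sets for plastid-encoded genes 1 was called (0% higher and 1.45% lower, against 8.74% and 11.0% of all probe sets), rpl33 of the plastid ribosome, which was lower at 9.39, 8.73 and 8.86 in cold and 9.97, 9.92 and 9.83 in non-stress arrays (difference -0.91, adjusted p = 0.014). It was lost without the second cold array (difference -0.78, adjusted p = 0.0587), 2 were called without the second non-stress array, and 3 with the replicate block. Their median difference was -0.03. Of the 22 probe sets for mitochondrion-encoded genes 2 were called (0% higher and 9.09% lower, against 8.74% and 11.0% of all probe sets), both of nad1, a subunit of respiratory complex I, with differences of -0.89 and -0.73; the first was lost without cold array 1 (-0.79, adjusted p = 0.0501). The 3′ IVT labelling used here starts from poly(A) tails, which organelle transcripts mostly lack.

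Protein folding genes of the endoplasmic reticulum were mostly lower among those called. Of 16 probe sets, 5 fell, 1 rose and 10 were not called (6.25% higher and 31.2% lower, against 8.74% and 11.0% of all probe sets), with a median of -0.34. ATERDJ3B, a DnaJ-type chaperone, read 7.09, 6.67 and 7.29 in cold and 8.87, 9.03 and 8.59 in non-stress arrays (difference -1.81 ± 0.20, adjusted p = 8.87e-05). PDIL5-1, a protein disulfide isomerase, and DER1, a derlin of protein disposal, differed by -1.03 and -0.96 (adjusted p = 2.71e-04 and 9.05e-04). The derlin DER2.2 went the other way, at 6.77, 6.60 and 6.47 in cold and 5.58, 5.97 and 5.61 in non-stress arrays (difference 0.89, adjusted p = 0.00129). The counts of the group moved to 1 higher and 3 lower without cold array 2 or non-stress array 1 or 2.

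Hsp70-2, a heat shock protein, read 6.64, 6.41 and 7.39 in cold and 8.46, 7.80 and 8.20 in non-stress arrays (difference -1.34, adjusted p = 0.00383), and the chloroplast chaperonin Cpn60beta4 differed by -0.94 (adjusted p = 1.75e-04). Hop1, a co-chaperone that links Hsp70 to Hsp90, was higher by 0.76 (adjusted p = 0.00177). Of the 17 chaperones measured 1 rose and 3 fell (5.88% higher and 17.6% lower, against 8.74% and 11.0% of all probe sets), and 2 rose and 2 fell without the second non-stress array. The electron transfer flavoprotein subunits ETFBETA and ETFALPHA, which take electrons from the breakdown of branched-chain amino acids, were lower by -1.24 and -0.92 (adjusted p = 0.00106 and 0.00232), and 4 of the 10 genes of that breakdown fell, with none higher (0% higher and 40% lower, against 8.74% and 11.0% of all probe sets). With all 38 arrays 1 fell. Of the 9 genes of osmolyte and aldehyde metabolism 4 fell and none rose (0% higher and 44.4% lower, against 8.74% and 11.0% of all probe sets). They were DELTA-OAT, ornithine aminotransferase, at -0.82 (adjusted p = 0.00105), and 3 aldehyde dehydrogenases. The aldehyde dehydrogenase ALDH10A8 was not called without cold array 1 or 3 or non-stress array 2 (-0.59 to -0.54, adjusted p = 0.0711 to 0.0733). In each of those fits 3 of the 9 fell.

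In RNA polymerase and ribosomal RNA production, 18 genes were measured, of which 3 rose and 2 fell (16.7% higher and 11.1% lower, against 8.74% and 11.0% of all probe sets), and with all 38 arrays in the fit 1 rose and none fell. The 3 that rose act in ribosomal RNA production or processing. YAO, a nucleolar protein, read 7.10, 6.32 and 6.90 in cold and 6.00, 5.39 and 4.63 in non-stress arrays (difference 1.43, adjusted p = 0.00517). PRH75, a nucleolar RNA helicase, read 9.03, 8.65 and 8.70 in cold and 8.05, 7.27 and 7.27 in non-stress arrays (difference 1.26, adjusted p = 7.04e-04), and RRP41, a core subunit of the RNA exosome, differed by 0.74 (adjusted p = 0.0107). The 25S ribosomal RNA control probe set was also higher in cold. The 3 genes are grouped here because they rose, so the shared direction was fixed by that choice, and a link was not tested. Leaving out single arrays changed the counts of the group to 3 higher and 0 lower without cold array 1, 2 or 3 or non-stress array 2, 6 higher and 1 lower without non-stress array 1 and 3 higher and 1 lower without non-stress array 3. AtRZ-1c, a glycine-rich zinc finger protein that binds RNA, read 7.91, 8.25 and 8.00 in cold and 7.21, 7.15 and 7.14 in non-stress arrays (difference 0.89, adjusted p = 0.00214).

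Among 20 immune receptors and defence effectors 5 rose and none fell (25% higher and 0% lower, against 8.74% and 11.0% of all probe sets), and with all 38 arrays in the fit 2 rose. PDF2.1, a defensin-family peptide, read 7.63, 6.75 and 5.95 in cold and 3.62, 3.57 and 3.68 in non-stress arrays (difference 3.15 ± 0.34, adjusted p = 8.39e-05), and BIK1, a cytoplasmic kinase of immune receptors, read 7.12, 7.15 and 7.26 in cold and 6.05, 5.96 and 6.45 in non-stress arrays (difference 1.03, adjusted p = 4.62e-04). With 1 array left out, the counts of the group became 2 higher and 0 lower without cold array 1, 3 higher and 1 lower without cold array 2, 3 higher and 0 lower without cold array 3 or non-stress array 3 and 2 higher and 1 lower without non-stress array 2. Of 11 U-box ubiquitin ligases 2 rose, 1 fell and 8 were not called (18.2% higher and 9.09% lower, against 8.74% and 11.0% of all probe sets). PUB22, which damps immune signalling, rose by 1.70 (adjusted p = 7.53e-04). PUB19 read 7.26, 5.18 and 7.97 in cold and 3.94, 3.98 and 4.70 in non-stress arrays (difference 2.60, adjusted p = 0.0259); it was not called without cold array 1 or 3 or non-stress array 1 or 2 (2.01 to 2.49, adjusted p = 0.0653 to 0.094). PUB24 read 3.49, 3.92 and 4.59 in cold and 4.67, 5.44 and 5.65 in non-stress arrays (difference -1.25, adjusted p = 0.0281); it was not called without cold array 1 or 2 or non-stress array 2 or 3 (-1.21 to -0.99, adjusted p = 0.0801 to 0.108). The jasmonate marker PDF1.2 read 6.90, 7.41 and 6.69 in cold and 7.36, 5.47 and 5.83 in non-stress arrays, and WRKY53 of the salicylic acid list read 3.84, 3.68 and 4.03 in cold and 5.04, 4.12 and 4.36 in non-stress arrays. Neither was called (adjusted p = 0.366 and 0.0922).

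Of 15 tetraspanins, membrane proteins that organise others, 1 rose and 3 fell (6.67% higher and 20% lower, against 8.74% and 11.0% of all probe sets). The falls were not stable when 1 array was left out. The counts became 1 higher and 0 lower without cold array 1 or 2 or non-stress array 2. They were 1 and 1 without cold array 3 or non-stress array 1, and 1 and 2 without non-stress array 3. TET3, the member that rose, read 9.29, 9.64 and 9.68 in cold and 7.12, 7.70 and 7.73 in non-stress arrays (difference 2.02 ± 0.17, adjusted p = 1.5e-05). ATG8E, which coats autophagic membranes, read 7.63, 8.01 and 7.29 in cold and 4.40, 6.43 and 6.09 in non-stress arrays (difference 2.002, adjusted p = 0.0147). ATG8E was not called without cold array 2 (1.82, adjusted p = 0.0568). Of 10 autophagy genes measured it was the 1 called (10% higher and 0% lower, against 8.74% and 11.0% of all probe sets). That share of rises is near that of all probe sets, and the median of the group was -0.20. Without non-stress array 1, 3 members were called lower, and 1 was without cold array 3. BETA-VPE, a vacuolar processing protease, rose by 1.41 (adjusted p = 8.53e-04). It was the 1 called of 4 vacuolar processing enzymes measured (25% higher and 0% lower, a share of 1 probe set). Of 13 genes of lipid storage, wax and sphingolipids 2 rose and 3 fell (15.4% higher and 23.1% lower, against 8.74% and 11.0% of all probe sets). WSD1, a wax ester synthase, read 5.20, 4.74 and 4.81 in cold and 6.46, 7.46 and 6.67 in non-stress arrays (difference -1.95, adjusted p = 3.83e-04). FaTA and FATB, thioesterases that release fatty acids from plastid synthesis, went opposite ways, with FaTA at -1.04 and FATB at 0.53 (adjusted p = 3.29e-04 and 0.00671).

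The tubulins, subunits of microtubules, were mixed, with 3 of 7 higher and 2 lower (42.9% higher and 28.6% lower, against 8.74% and 11.0% of all probe sets). TUA6 read 9.24, 8.39 and 8.78 in cold and 10.16, 10.21 and 9.74 in non-stress arrays (difference -1.23, adjusted p = 0.00572), whereas TUA1 and TUB9 rose by 0.84 and 0.76 (adjusted p = 0.00746 and 0.0038). TUB5 read 10.09, 9.92 and 10.21 in cold and 8.36, 9.72 and 8.38 in non-stress arrays, with the second non-stress array again apart from the other two. The difference in TUB5 was 1.25 ± 0.33 (adjusted p = 0.0208), and it was not called without cold array 1 or 3 or non-stress array 1 or 3 (1.03 to 1.25, adjusted p = 0.0574 to 0.081).

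Of 4 genes of the stomatal lineage 1 fell (0% higher and 25% lower, against 8.74% and 11.0% of all probe sets), a share that rests on 1 probe set. The other 3, between -0.36 and 0.11, were not called. STOMAGEN, a mesophyll-made peptide that promotes stomata, read 6.15, 5.86 and 6.62 in cold and 8.42, 8.77 and 8.80 in non-stress arrays (difference -2.46 ± 0.23, adjusted p = 3.21e-05). TRY, TRIPTYCHON, a repressor of leaf hair formation and the 1 measured trichome marker of 9 listed, read 3.16, 3.36 and 3.23 in cold and 5.54, 4.41 and 6.49 in non-stress arrays (difference -2.23, adjusted p = 0.0122). Of 4 measured guard cell markers 1 was higher (25% higher and 0% lower, against 8.74% and 11.0% of all probe sets), again a share of 1 probe set. It was AT1G22690, at 9.08, 8.86 and 9.12 in cold and 7.25, 7.89 and 7.94 in non-stress arrays (difference 1.32, adjusted p = 7.55e-04). The other 3 were not called, the lowest at -0.36, and the median of the 4 was 0.06. In whole rosettes, fewer cells of a type and less RNA per cell cannot be told apart.

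PYK10, a root beta-glucosidase and the 1 measured root marker, read 5.59, 2.73 and 2.90 in cold and 5.12, 3.29 and 2.89 in non-stress arrays. It was thus high in the first array of each condition and low in the others, and the groups overlapped (difference -0.03, adjusted p = 0.987). None of the listed mesophyll, phloem, xylem, flower or seed markers had a named probe set, so the rosette label could be checked only through these genes and the high levels of photosynthesis genes, such as LHCB4.2.

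In some probe sets, called or not, 1 array stood apart from both others of its group. Counting probe sets in which 1 array lay at least 1.5 above both others of its group gave 20, 29 and 8 for cold arrays 1, 2 and 3 and 46, 28 and 4 for non-stress arrays 1, 2 and 3. Arrays at least 1.5 below both others gave 1, 20 and 6 in cold and 12, 29 and 12 in non-stress plants. In every one of these probe sets except 1 of the 28 above in the second non-stress array, the polysomal array with the same replicate number was also the highest, or the lowest, of its 3. Total and polysomal arrays with the same number thus deviated together, gene by gene.

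AT1G26790 had the largest difference among named probe sets that were not called. It read 6.98, 3.03 and 6.41 in cold and 2.34, 2.49 and 2.45 in non-stress arrays (difference 3.05 ± 1.29, adjusted p = 0.133). The second cold array was close to the non-stress level, while the other two were high. The second polysomal cold array of the gene was likewise low, with 5.93, 2.72 and 4.94 in the 3 polysomal cold arrays. AT3G28270 overlapped between groups, at 4.37, 5.78 and 4.09 in cold and 7.78, 5.01 and 7.66 in non-stress arrays (difference -2.07, adjusted p = 0.193). AT5G15950 read 9.31, 7.39 and 9.47 in cold and 6.98, 5.74 and 6.63 in non-stress arrays, lower in the second array of each condition (difference 2.27, adjusted p = 0.0502; adjusted p = 6.46e-04 with the replicate block).

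**Figure D4:**
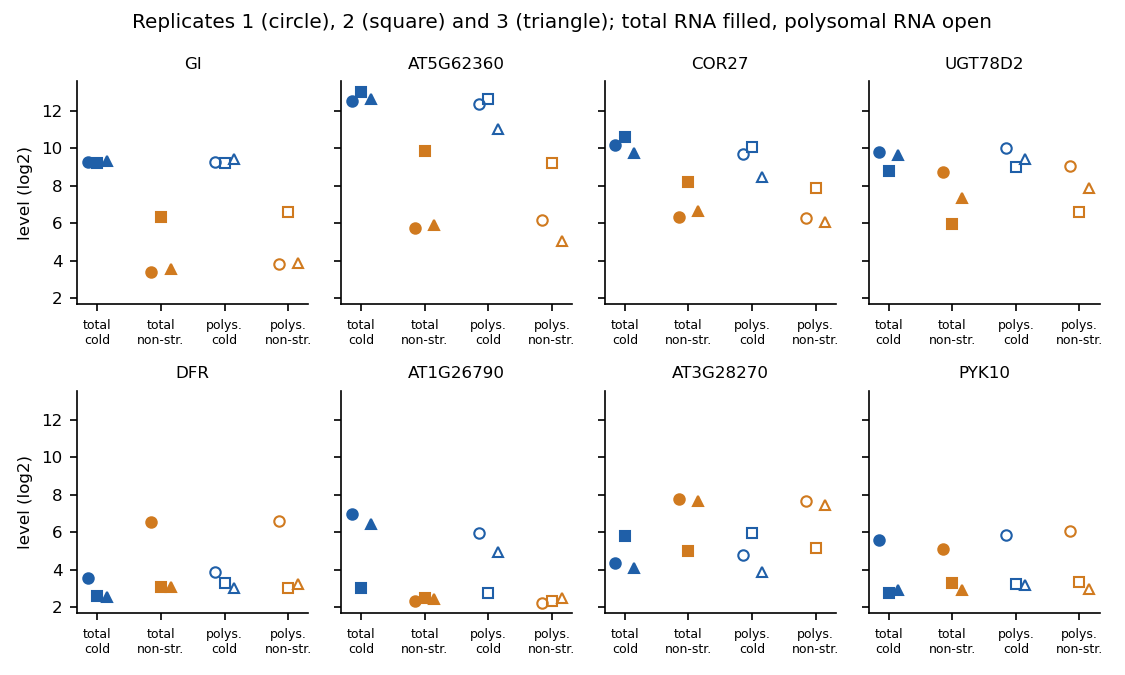
Levels (log2) of 8 genes in total RNA (filled) and polysomal RNA (open) of HF-RPL18, with cold (blue) left of non-stress (orange) in each pool and circles, squares and triangles for replicates 1, 2 and 3. The replicate that stands apart in total RNA, such as the second non-stress array of GI at 6.30 or the first non-stress array of DFR at 6.53, stands apart in polysomal RNA as well.

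Polysomal RNA, the mRNA bound to at least 2 ribosomes, gave 1627 higher (7.15%) and 2053 lower (9.03%) probe sets in the same line. These calls came from a fit over the 28 total and polysomal arrays, in which total RNA gave 1781 higher and 2189 lower. The total RNA calls set beside them below are those of the fit over 14 arrays, so the 2 sets of calls differ in their fit too. Of the 1987 probe sets higher in total RNA, 1957 had a polysomal difference above 0 and 1267 were also called higher there. Of the 2498 lower, 2468 had a polysomal difference below 0 and 1629 were called lower. LTI30 rose by 7.10 in polysomal RNA, EXLA1 by 3.82 and IAA29 by 2.95, and TBL26 and STOMAGEN differed by -4.43 and -2.09. Across all tested probe sets the correlation of the total and polysomal differences was 0.929, a description of arrays that come from the same plant line and share replicate deviations.

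Total RNA of the other lines gave 3470 called probe sets (15.3%) in atcsp1-1 and 2942 (12.9%) in CSP1-FH, each from 2 cold against 2 non-stress arrays, against 4485 (19.7%) in HF-RPL18 from 3 against 3. By the limma test of the difference itself, the response of HF-RPL18 minus that of atcsp1-1 was called in 0 of 22746 probe sets (0.00%), with 576 at an unadjusted p below 0.05 and a smallest adjusted p of 0.9999. The response of HF-RPL18 minus that of CSP1-FH was called in 0 (0.00%), with 565 at an unadjusted p below 0.05. The median SE of such a difference was 0.23, and 71 probe sets for atcsp1-1 and 49 for CSP1-FH differed by at least 1 without passing the test. With 2 arrays a group in the other lines, a p that misses the threshold does not show that the lines respond alike.

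Nearly all called probe sets had the same direction in those lines. Of the 1987 probe sets that rose in HF-RPL18, 1970 had a difference above 0 in atcsp1-1 and 1973 in CSP1-FH, and of the 2498 that fell, 2467 and 2470 had a difference below 0. The lines share no arrays, and the correlation of differences across probe sets was 0.920 with atcsp1-1 and 0.923 with CSP1-FH, a description over probe sets that share array and normalisation. The 12 largest named rises, 4.57 to 8.11 in HF-RPL18, were 3.95 to 7.01 in atcsp1-1 and 4.06 to 8.27 in CSP1-FH. The 12 largest falls, -4.46 to -2.74 in HF-RPL18, were -4.66 to -2.31 in atcsp1-1 and -3.82 to -2.52 in CSP1-FH.

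LTI30 rose by 8.11 in HF-RPL18, 7.01 in atcsp1-1 and 8.27 in CSP1-FH, and COR15A by 2.21, 2.06 and 2.47 in the same lines. EXLA1 rose by 4.05 in HF-RPL18, 3.23 in atcsp1-1 and 3.77 in CSP1-FH. WSD1 fell in HF-RPL18, with a difference of -1.95, and its differences were -1.64 in atcsp1-1 and -1.11 in CSP1-FH. PYK10, the gene whose level varied between replicates, had the largest spread among named genes, with -0.03 in HF-RPL18, 2.02 in atcsp1-1 and 0.09 in CSP1-FH. None of these line differences passed the test.

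**Figure D5:**
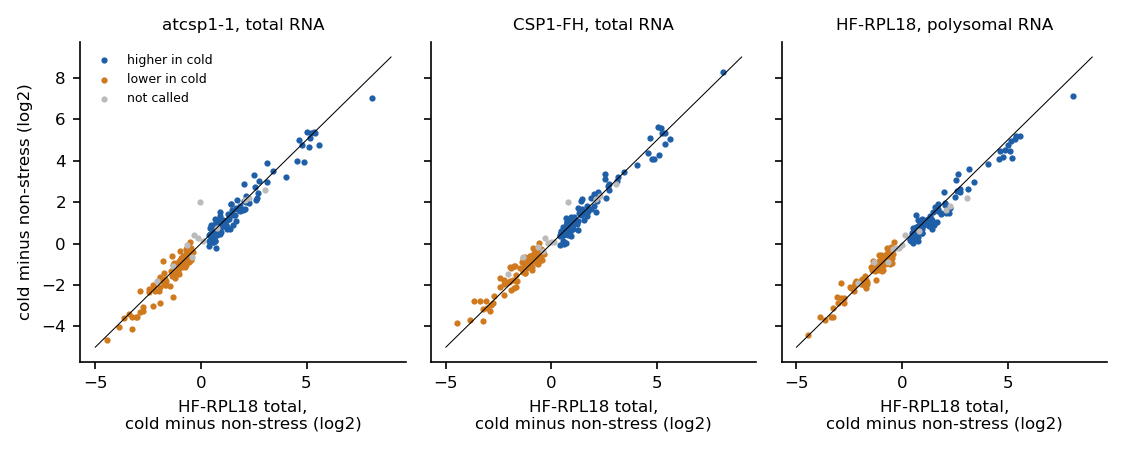
Cold minus non-stress difference (log2) of the 216 named probe sets in atcsp1-1 total RNA, CSP1-FH total RNA and HF-RPL18 polysomal RNA, each plotted against the difference in HF-RPL18 total RNA (log2); blue points were called higher in cold in HF-RPL18 total RNA, orange lower, grey not called, and the line marks equal values. LTI30, the point furthest to the right, is at 8.11 in HF-RPL18 and at 7.01, 8.27 and 7.10 in the 3 other comparisons.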

How the data were processed

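Total RNA of rosettes was labelled by 3′ IVT and hybridised to Affymetrix ATH1 arrays, 1 per sample, per the labels' protocols. The authors' deposited values are RMA summaries on a log2 scale, per the submitters' processing notes; the RMA version and the set of arrays normalised at once are not stated there. RMA equalises array distributions, so only relative differences are measured, and dim probe sets are compressed. The number of arrays limits the precision.

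Differences were fitted with limma 3.58.1 in R 4.3.3 (lmFit and eBayes, group means over the 14 total RNA arrays of 3 lines, 8 residual degrees of freedom). P-values were two-sided and adjusted by Benjamini-Hochberg over 22746 probe sets, with calls below 0.05, and the code was tested on simulated data. The other 24 arrays entered only alternatives or the polysomal values. Probe sets were named by the platform annotation where it gave 1 gene, with symbols updated through RefSeq (TAIR10.1, 13436 matched). Another 503 had several genes and 8730 no entry, and these were not named.

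Same-numbered cold and non-stress arrays deviated together (correlations 0.50, 0.31 and 0.38 of the deviations from the group means). The reported fit has no block and so leaves this pairing out of its p-values. The fit with the replicate number as a block, run as an alternative, called 2555 probe sets higher and 3170 lower. Values with the replicate as a block are given for named genes that gained a call and for some groups. Calls of named genes that it ended are listed with the alternatives. Counts of further groups moved with the block, such as these. Redox repair became 1 higher and 6 lower, RALF-like peptides 0 and 4, and wall polymer synthesis 5 and 6. Endoplasmic reticulum folding became 1 and 6, photosystem genes 1 and 7, ribosomal RNA production 4 and 2, and lipid genes 3 and 3.

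The comparison and the gene lists were chosen with earlier results of these data known, and name patterns of the families and further groups were set after the annotation had been read. Named genes were the 12 largest rises and 12 largest falls called without overlap, up to 6 called members per list by size (or the 2 largest differences where none was called), up to 5 called per line difference and direction, and the 4 largest differences not called; AT4G33980 and LEA4-5 are named in addition, chosen after their values were seen. Lists without a measured gene (upstream cold signalling, cold shock and glycine-rich RNA-binding proteins, abscisic acid, cell division) are not reported.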

Additional observations from a re-analysis of the deposited data

Results flagged for a closer look

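Among the Affymetrix control probe sets for Arabidopsis transcripts, which were outside the tested probe sets, 3 lay at least 0.5 higher on the log2 scale in cold than in non-stress plants with no overlap between the groups. The 25S ribosomal RNA control read 10.33, 10.34 and 10.16 in cold and 9.27, 9.78 and 9.05 in non-stress arrays, a difference of 0.91. A ubiquitin 5′ control read 11.59, 11.18 and 11.30 in cold and 10.72, 10.49 and 10.84 in non-stress arrays, a difference of 0.68, and a second ubiquitin 5′ control differed by 0.50. Several actin controls were lower in cold, such as the actin 3′ control, which read 11.24, 11.33 and 11.38 in cold and 11.70, 11.98 and 11.69 in non-stress arrays. No test was run on the controls.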

How the results depend on the processing

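The counts of 1987 higher and 2498 lower probe sets became 1210 and 1237 with all 38 arrays in the fit; the immunoprecipitated arrays then enter the shared spread. Requiring a difference of at least 1 left 961 higher and 863 lower. With the replicate block the counts were 2555 and 3170, with cyclic loess 2289 and 2084, and with the 6 compared arrays alone 1595 and 1833. Leaving out each of the 6 arrays in turn gave 1586 to 1969 higher and 1864 to 2360 lower. No probe set was called for the difference from atcsp1-1 or from CSP1-FH in the settings run for it (all but the 6 compared arrays alone and the minimum difference), and leaving out each array in turn gave 0 to 0; the smallest adjusted p over these settings was 0.164, without non-stress array 1. None of the 216 named probe sets reversed. Of the 204 called, 126 were called in all 6 fits that leave out 1 array, and 79 were lost with all 38 arrays. The block ended 8 calls, those of AT2G31110, AtRZ-1b, D2HGDH, GLR2.8, PIFI, scpl26, ARA12 and SBT3.3 (adjusted p = 0.0527 to 0.0698). Among the groups described, further counts that moved by over 1.5 times with all 38 arrays were those of the P450 genes (0 higher and 3 lower), dehydration proteins (9 and 1), redox repair (1 and 3), plastid-encoded genes (0 and 0), photosystem genes (1 and 3), endoplasmic reticulum folding (1 and 3), the trichome birefringence-like family (1 and 2), tubulins (1 and 2), tetraspanins (1 and 0), lipid genes (0 and 2), beta-glucosidases (1 and 1), chaperones (0 and 3), cellulases (0 and 1) and mitochondrion-encoded genes (0 and 0); the cause was not tested. The median of all probe sets stayed within 0.1 of 0 in every setting.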
